A study of Mus musculus with 9 samples.

Results

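The D cyclins, their kinase partners and the inhibitors of these kinases were followed in ROC6, a murine oral squamous cell cancer line. The members were fixed as 10 gene names, of which 7 had exactly 1 row among the 15446 uniquely named genes of the expression table: the cyclins Ccnd1 and Ccnd2, the kinase Cdk6, and the inhibitors Cdkn1a, Cdkn1b, Cdkn2a and Cdkn2c. Cdk4, Ccnd3 and Cdkn2b had no row and are unmeasured here, which says nothing of their expression. The name of the table marks it as one of common differentially expressed genes, and how its rows were chosen was not examined. Levels were read as FPKM, a read abundance scaled to transcript length and to the size of the library, in 9 poly(A) RNA libraries. Of these, 3 came from cells with a CSMD3 knockout made with guide 1, 3 from cells with a CSMD3 knockout made with guide 2, and 3 from a WT control of the same line. All groups were grown in the same medium with 10% serum. The series speaks of its knockouts as clones, so a trait of a single clone and an effect of the lost gene cannot be told apart. No label states that replicates are separate cultures, and each p-value therefore refers to library-to-library spread, part of which may be technical.

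D-type cyclins bind CDK4 or CDK6 in G1, the phase before DNA synthesis, and these complexes phosphorylate the retinoblastoma protein and free E2F transcription factors. The INK4 inhibitors, encoded by Cdkn2a, Cdkn2b, Cdkn2c and Cdkn2d, bind CDK4 and CDK6, whereas the CIP/KIP inhibitors p21 (Cdkn1a) and p27 (Cdkn1b) act chiefly on CDK2 complexes and also bind the cyclin D complexes. Cdkn2a also encodes p19ARF in mice, a protein that stabilises p53 by binding MDM2, and Cdkn1a is a transcriptional target of p53. In squamous carcinomas of the head and neck in humans, loss of CDKN2A and amplification of CCND1 are frequent.

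The promoters below, read from the RefSeq promoter table on GRCm38.p6 (250 bases before and 50 after a start), belong to Cdkn1a, Cdkn1b and Cdkn2c, the inhibitors among the measured members whose groups stood farthest from the control. Of the 10 members, 8 matched a promoter there, and for Cdkn1a and Cdkn2c, which have 2 each, the more upstream one is printed. The build behind the FPKM values is not given in the sources used here. The first, of Cdkn1a (chr17:29090729-29091028, plus strand), carries in capitals a pair of p53 half-sites with no spacer and 1 mismatch outside the cores, starting 51 bases before the start. The next, of Cdkn1b (chr6:134920151-134920450, plus strand) and Cdkn2c (chr4:109666707-109667006, minus strand), carry in capitals the GC box GGGCGG and the CCAAT box, both searched on both strands.
Cdkn1a: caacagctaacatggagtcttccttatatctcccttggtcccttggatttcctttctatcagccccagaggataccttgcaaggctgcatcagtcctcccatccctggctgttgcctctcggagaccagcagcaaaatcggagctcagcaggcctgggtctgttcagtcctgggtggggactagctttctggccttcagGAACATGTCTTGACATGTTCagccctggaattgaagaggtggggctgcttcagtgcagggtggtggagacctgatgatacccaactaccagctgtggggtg
Cdkn1b: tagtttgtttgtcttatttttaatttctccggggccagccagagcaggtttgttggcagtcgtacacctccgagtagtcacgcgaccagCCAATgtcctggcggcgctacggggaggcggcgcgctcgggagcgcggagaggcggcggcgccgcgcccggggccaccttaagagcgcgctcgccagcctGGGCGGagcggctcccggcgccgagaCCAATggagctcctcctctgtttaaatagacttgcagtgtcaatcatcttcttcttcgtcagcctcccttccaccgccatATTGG
Cdkn2c: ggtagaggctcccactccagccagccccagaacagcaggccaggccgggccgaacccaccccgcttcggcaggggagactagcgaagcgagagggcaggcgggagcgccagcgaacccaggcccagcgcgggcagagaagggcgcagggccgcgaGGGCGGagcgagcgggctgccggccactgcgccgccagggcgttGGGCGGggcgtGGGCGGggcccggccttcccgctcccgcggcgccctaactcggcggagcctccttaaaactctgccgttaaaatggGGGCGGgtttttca

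The p53 pair was found in 0.0548% of all 32851 promoters of the table, which makes it a rare match. The Cdkn1b window held 1 GC box and 3 CCAAT boxes, and the Cdkn2c window 4 GC boxes and 0 CCAAT boxes. Of all promoters of this length, 35.7% held a GC box and 37.4% a CCAAT box. The E-box CACGTG (7.15% of all promoters), the TATA box TATAAA (13.6%), the FOXO site TGTTTAC (3.65%) and the E2F site TTTNGCGC (1.38%), searched on both strands, were not found in these 3 windows. The other promoters differ in content. That of Cdkn1a (chr17:29093519-29093818, plus strand) held no such p53 pair, 2 GC boxes and 64.7% GC, and that of Cdkn2c (chr4:109665323-109665622, minus strand) held 0 GC boxes, 1 CCAAT box, 1 E-box and 44% GC. GC content of the printed windows was 54.7% for Cdkn1a, 62.0% for Cdkn1b and 73.3% for Cdkn2c, against a median of 52.7% over all promoters. A match describes letters in a window and says nothing of binding.

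Cdkn1b and Cdkn2c fell in both knockouts, Ccnd2 fell most with guide 2, Ccnd1 rose with guide 2, and Cdkn1a, close to 0 in the control, was above it in all 6 knockout libraries. Of the 7 measured members, 6 reached a mean of 1 FPKM over the 9 libraries and were tested with limma on log2(FPKM + 1), where a call is a Benjamini-Hochberg adjusted p under 0.05 over 6965 tested genes. Differences are log2 fold changes on this scale. With guide 1, 5 of 6 passed, 1 higher and 4 lower than control, where 68.1% of all tested genes passed, 30.2% higher and 37.9% lower. With guide 2, 5 of 6 passed, 1 higher and 4 lower, against 65.4% of all tested genes, 31.9% higher and 33.5% lower. For the mean of both guides, 6 of 6 passed, 2 higher and 4 lower, against 81.1% of all tested genes, 37.8% higher and 43.3% lower. Between guide 2 and guide 1, 3 of 6 differed, 2 higher and 1 lower with guide 2, against 54.5% of all tested genes, 31.2% higher and 23.3% lower. Without guide 1 replicate 2, and likewise without guide 1 replicate 3, 3 members passed with guide 1. These counts are near the background of a table in which most genes differ. The median log2 fold change of the 6 members was -0.21 with guide 1, -0.41 with guide 2 and -0.45 for both, against -0.04, -0.03 and -0.08 over all tested genes. Both guide comparisons use the same 3 control libraries, and 15441 of the 15446 rows have both knockout means above the control or both below it, so a shared direction is a property of the table. Shares over all tested genes are likewise shares of the rows kept in this table, not of all expressed genes.

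**Figure D1:**
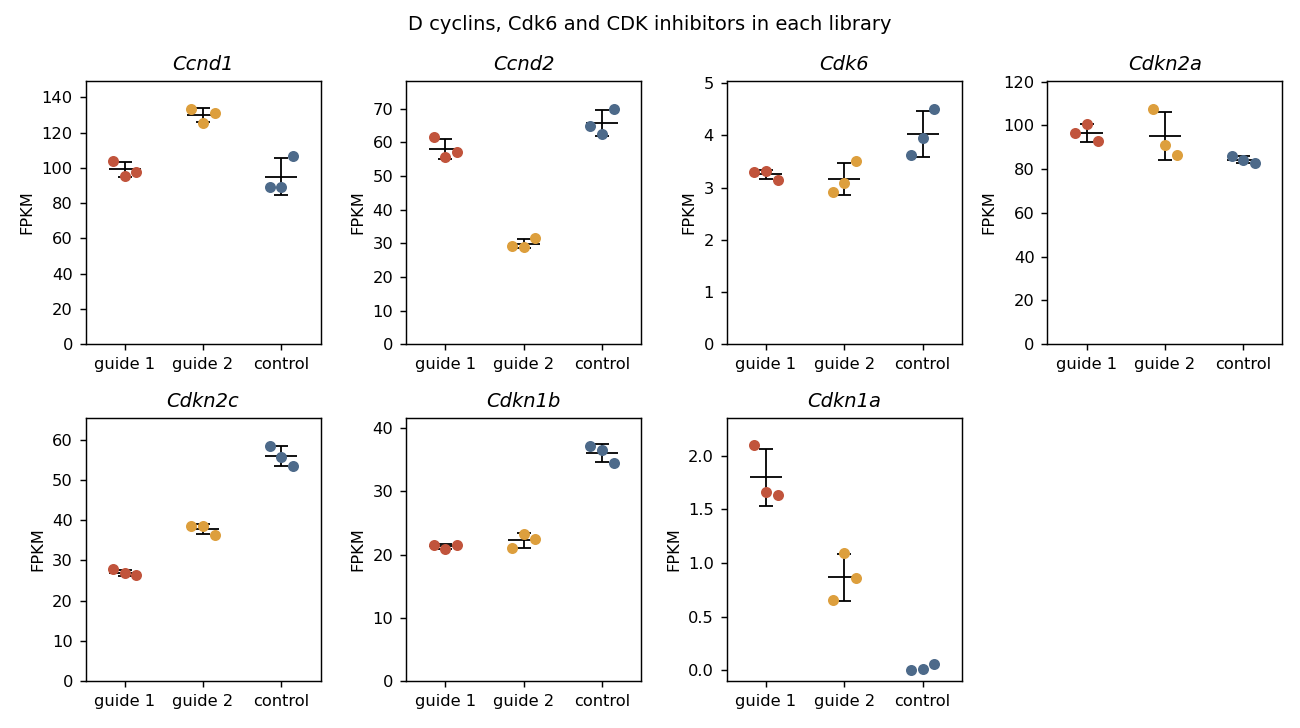
FPKM of the 7 measured members in each library (points) of guide 1, guide 2 and control, with the mean and SD over 3 libraries as black bars, left out for Cdkn1a in the control. Cdkn1b and Cdkn2c are lower and Cdkn1a is higher in all 6 knockout libraries than in the 3 controls, and Ccnd2 is lowest with guide 2, at 28.9 to 31.5 FPKM.

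Libraries were alike in size of signal, with a sum over uniquely named genes of 162625 to 168620 FPKM. Sequencing depth is unknown, since the table holds FPKM alone. The targeted gene was not analysed here, and the labels could not be checked against it. Of 18 oral squamous keratinocyte markers 8 had a row, and the defining keratins Krt5 and Krt14, the factor Trp63 and E-cadherin (Cdh1) were not among them, so the labelled cell type could not be checked against these. The summed level of the 8 was 32.1 to 35.4 FPKM in guide 1 libraries, 12.9 to 14.9 FPKM in guide 2 libraries and 7.001 to 7.51 FPKM in control libraries, and all 3 that were tested (Sfn, Jup and Itga6) were higher for the mean of both guides. Itga6 did not pass with guide 2 (log2 fold change 0.05, limma adjusted p = 0.554). Among the 5 untested markers Itgb4 was lower in all 6 knockout libraries than in the control, with means of 0.309 FPKM in guide 1 cells, 0.612 FPKM in guide 2 cells and 0.843 FPKM in control cells. The others were the keratins Krt13, Krt15, Krt16 and Krt17, which reached at most 0.797, 0.920, 0.354 and 0.249 FPKM in any library. These measured keratins thus gave no support for the labelled cell type. Most of the sum came from Jup and Itga6, with means of 20.9 and 9.49 FPKM in guide 1 cells. The 2 of 10 fibroblast markers with a row summed to 1.44 to 1.82 FPKM in guide 1 libraries, 7.89 to 9.08 FPKM in guide 2 libraries and 0.840 to 1.60 FPKM in control libraries, and their collagens Col1a1 and Col3a1 had no row. The 2 of 8 leukocyte markers summed to 1.20 to 1.54 FPKM in guide 1 libraries, 1.81 to 2.67 FPKM in guide 2 libraries and 0.473 to 0.875 FPKM in control libraries. The endothelial (1 of 5 with a row) and muscle (4 of 6) markers stayed at or below 0.795 FPKM in sum in every library. That maximum was the muscle sum of 1 control library. The endothelial marker with a row, Kdr, stood at 0.647 to 0.695 FPKM in guide 1 libraries. It stood at 0.0219 to 0.0992 FPKM in guide 2 libraries and 0 to 0.0150 FPKM in control libraries. The part of these marker levels in the results was not tested. In bulk RNA, a change in the share of cells that express a gene and a change in RNA per cell cannot be told apart.

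Of the D cyclins, Ccnd1 was the most abundant member by mean FPKM in every group, and its level was higher with guide 2 than in both other groups. Its level was 104, 95.6 and 97.9 FPKM in the guide 1 libraries, 133, 126 and 131 FPKM in the guide 2 libraries, and 89.1, 89.2 and 107 FPKM in the control libraries. All guide 2 libraries lay above all others, and the guide 1 and control libraries overlapped, because control replicate 3 stood at 107 FPKM. With guide 2 Ccnd1 rose by a log2 fold change of 0.45 (SE 0.0700, limma adjusted p = 0.000231), and it was 0.39 higher with guide 2 than with guide 1 (SE 0.0700, limma adjusted p = 0.000871). With guide 1 the difference was 0.06 with a 95% interval from -0.09 to 0.22 (limma adjusted p = 0.435). Without control replicate 3 this difference was 0.15 and passed (limma adjusted p = 0.0187), with adjusted p-values from 0.0187 to 0.828 over all alternatives. In the GENCODE annotation of GRCm38 exons of LTO1 overlap those of Ccnd1 on the opposite strand. The libraries were stranded, but the counting setting is not given in the sources used here.

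Immediate early genes, which growth factors and handling can induce, were higher in both knockouts. All 6 tested genes of 12 listed rose with each guide, where 30.2% of all tested genes rose with guide 1 and 31.9% with guide 2. The guides are not separate evidence here, since they share the control libraries and a shared direction is a property of the table. Fos, Jun and Ier3 had no row. The summed level of the 9 with a row was 231 to 243 FPKM with guide 1, 192 to 206 FPKM with guide 2 and 98.5 to 108 FPKM in the control. This sum was highest with guide 1, where Junb stood at a mean of 88.5 FPKM and Dusp1 at 81.9 FPKM. The single genes had no common order between the guides. Of the 6 tested, Egr1 and Ier2 were higher with guide 2 than with guide 1, the order that Ccnd1 also had. Junb, Atf3 and Dusp1 were lower with guide 2, and Nr4a1 did not pass. The part of these genes in the level of Ccnd1 was not tested.

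Ccnd2, which encodes another D-type cyclin, went the other way. Its level was 61.5, 55.6 and 57.1 FPKM with guide 1, 29.3, 28.9 and 31.5 FPKM with guide 2, and 64.9, 62.5 and 69.8 FPKM in the control. All guide 2 libraries were below all guide 1 libraries, which in turn were all below the control libraries, by a narrow margin between 61.5 and 62.5 FPKM. With guide 2 Ccnd2 fell to 0.455 of the control mean (log2 fold change -1.11, SE 0.0579, limma adjusted p = 7.63e-08), a larger absolute change than in 93.1% of tested genes. Guide 2 was 0.93 log2 units below guide 1 (log2 fold change -0.93, SE 0.0579, limma adjusted p = 4.82e-07). With guide 1 it fell by 0.18 (log2 fold change -0.18, SE 0.0579, limma adjusted p = 0.0202), a call lost after quantile normalization (limma adjusted p = 0.0854) and after trimmed mean rescaling (limma adjusted p = 0.0638), and without guide 1 replicate 2, guide 1 replicate 3 or control replicate 3, with adjusted p-values from 0.012 to 0.0854 over all alternatives. In the annotation Ccnd2 exons are overlapped on the opposite strand by exons of 9330179D12Rik and Gm43126.

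FPKM is scaled to transcript length, so levels of the 2 cyclins can be set side by side within a library, and their ratio does not depend on the scaling between libraries. Their summed level was 157 ± 7.33 FPKM in guide 1 cells, 160 ± 4.69 FPKM in guide 2 cells and 161 ± 13.9 FPKM in control cells (SD, n = 3 each). Ccnd2 made up 36.8% to 37.2% of this sum with guide 1, 18.02% to 19.3% with guide 2 and 39.5% to 42.1% in the control. The sums of the 3 groups overlapped while the shares did not, and the share was lowest with guide 2. Ccnd1 stood at 1.71 ± 0.0151 times Ccnd2 with guide 1, 4.36 ± 0.186 times with guide 2 and 1.44 ± 0.0806 times in the control (SD, n = 3 each). These sums and shares are descriptions with no test, and Ccnd3 is not in them.

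**Figure D2:**
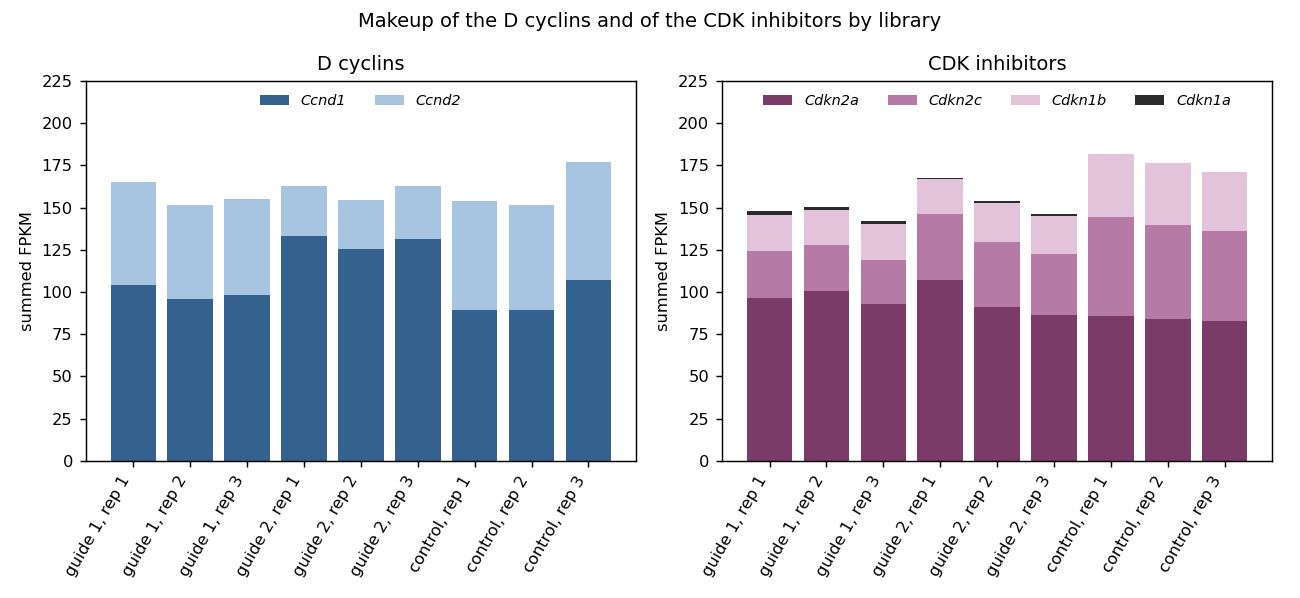
Summed FPKM in each library of the D cyclins Ccnd1 and Ccnd2 (left) and of the inhibitors Cdkn2a, Cdkn2c, Cdkn1b and Cdkn1a (right), stacked by gene and ordered guide 1, guide 2, control. The cyclin sums lie between 151 and 177 FPKM in all libraries while Ccnd2 takes 18.02% to 19.3% with guide 2, and the inhibitor sums are 142 to 168 FPKM in the knockouts and 171 to 182 FPKM in the control.

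Cdk6, a kinase partner of the D cyclins, was a low member and fell slightly in both knockouts. Its level was 3.31, 3.31 and 3.15 FPKM with guide 1, 2.91, 3.08 and 3.51 FPKM with guide 2, and 3.62, 3.95 and 4.50 FPKM in the control. Every knockout library was below every control library, with 3.51 and 3.62 FPKM as the nearest values. The log2 fold change was -0.24 with guide 1 (SE 0.0791, limma adjusted p = 0.0223) and -0.27 with guide 2 (SE 0.0791, limma adjusted p = 0.0124). Between guide 2 and guide 1 it stood at -0.03, with a 95% interval from -0.21 to 0.14 (limma adjusted p = 0.757). The guide 1 call was lost without guide 1 replicate 3 (limma adjusted p = 0.0647), without control replicate 3 (0.0797) and with no filter on low values (0.0521), the adjusted p over all alternatives reaching from 0.0115 to 0.0797. Exons of Gm17590 overlap Cdk6 on the opposite strand in the annotation.

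Among the INK4 inhibitors, Cdkn2c, which encodes p18INK4c, fell in both knockouts and more with guide 1. Its level was 27.8, 26.9 and 26.3 FPKM with guide 1, 38.6, 38.5 and 36.4 FPKM with guide 2, and 58.5, 55.8 and 53.6 FPKM in the control. The 3 groups did not overlap, with guide 1 lowest and the control highest. Cdkn2c stood at 0.482 of the control mean with guide 1 (log2 fold change -1.02, SE 0.0479, limma adjusted p = 2.59e-08) and at 0.676 of it with guide 2 (log2 fold change -0.55, SE 0.0479, limma adjusted p = 3.26e-06). Guide 2 was higher than guide 1 by a log2 fold change of 0.47 (SE 0.0479, limma adjusted p = 1.67e-05). The guide 1 change was larger in absolute size than that of 89.8% of tested genes.

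Cdkn2a, whose overlapping reading frames encode p16INK4a and p19ARF, was the most abundant inhibitor in every group and moved little. Its level was 96.3, 101 and 92.8 FPKM with guide 1, 107, 91.2 and 86.4 FPKM with guide 2, and 85.9, 84.0 and 82.8 FPKM in the control. The guide 1 and guide 2 libraries overlapped, and all 6 lay above the control, with 86.4 and 85.9 FPKM as the nearest values. The log2 fold change was 0.20 with guide 1 (SE 0.0720, limma adjusted p = 0.0336) and 0.17 with guide 2 (SE 0.0720, limma adjusted p = 0.0657). The guide 1 call was lost with no filter, with p-values multiplied by 1.5, and without any one of guide 1 replicates 1 and 2 and control replicates 1 to 3, with adjusted p-values from 0.00315 to 0.108 over all alternatives. Without guide 2 replicate 1, the library at 107 FPKM, the guide 2 difference was 0.07 (limma adjusted p = 0.208). It passed after quantile normalization (limma adjusted p = 0.0211), with a replicate block (0.0469) and without guide 2 replicate 3 (0.0185), and its adjusted p over all alternatives ran from 0.0185 to 0.208. For the mean of both guides Cdkn2a rose by 0.18 (SE 0.0624, limma adjusted p = 0.0216), a call lost with no filter (0.0568), without control replicate 2 (0.0565) and without control replicate 3 (0.0625). Between guide 2 and guide 1 the log2 fold change was -0.03, with a 95% interval from -0.19 to 0.13 (limma adjusted p = 0.757). The row does not separate the transcripts: RefSeq places 2 starts of Cdkn2a on the minus strand of chromosome 4 in GRCm38.p6, 12427 bases apart, and the upstream one is that of p19ARF in mice.

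Of the CIP/KIP inhibitors, Cdkn1b, which encodes p27, fell by like amounts in both knockouts. Its level was 21.5, 20.8 and 21.5 FPKM with guide 1, 21.0, 23.3 and 22.4 FPKM with guide 2, and 37.2, 36.5 and 34.5 FPKM in the control. The knockout groups overlapped with each other, and all 6 libraries lay below the lowest control, with 23.3 and 34.5 FPKM as the nearest values. The log2 fold change was -0.73 with guide 1 (SE 0.0505, limma adjusted p = 4.64e-07) and -0.67 with guide 2 (SE 0.0505, limma adjusted p = 1.11e-06). Between guide 2 and guide 1 it was 0.06, with a 95% interval from -0.05 to 0.17 (limma adjusted p = 0.337).

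Cdkn1a, which encodes p21, was the lowest member in every group and did not reach the mean of 1 FPKM that testing required. Its level was 2.10, 1.66 and 1.63 FPKM with guide 1, 0.656, 1.09 and 0.856 FPKM with guide 2, and 0, 0.0156 and 0.0546 FPKM in the control. The 3 groups did not overlap, with guide 1 highest and the control lowest. Since 1 control library is listed at 0, no fold against the control is given. In the fit with no filter, over 15446 genes, the difference on the log2(FPKM + 1) scale was 1.45 with guide 1 (SE 0.101, limma adjusted p = 1.47e-05) and 0.86 with guide 2 (SE 0.101, limma adjusted p = 0.000305). There guide 2 was below guide 1, with a log2 fold change of -0.59 (SE 0.101, limma adjusted p = 0.00329). Exons of AC167363.2 overlap Cdkn1a on the opposite strand.

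Groups did not overlap for 5 of the 6 tested members with guide 1 against control, where this held for 71.9% of tested genes, and for 6 of 6 with guide 2 against control, where it held for 68.6%. All 6 knockout libraries lay beyond the 3 controls for 5 of 6, against 53.7% of tested genes, and guide 2 and guide 1 did not overlap for 3 of 6, against 61.5%. The exception with guide 1 and with both guides was Ccnd1. Between the guides the separated members were Ccnd1, Ccnd2 and Cdkn2c, the same 3 that passed the test there.

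**Figure D3:**
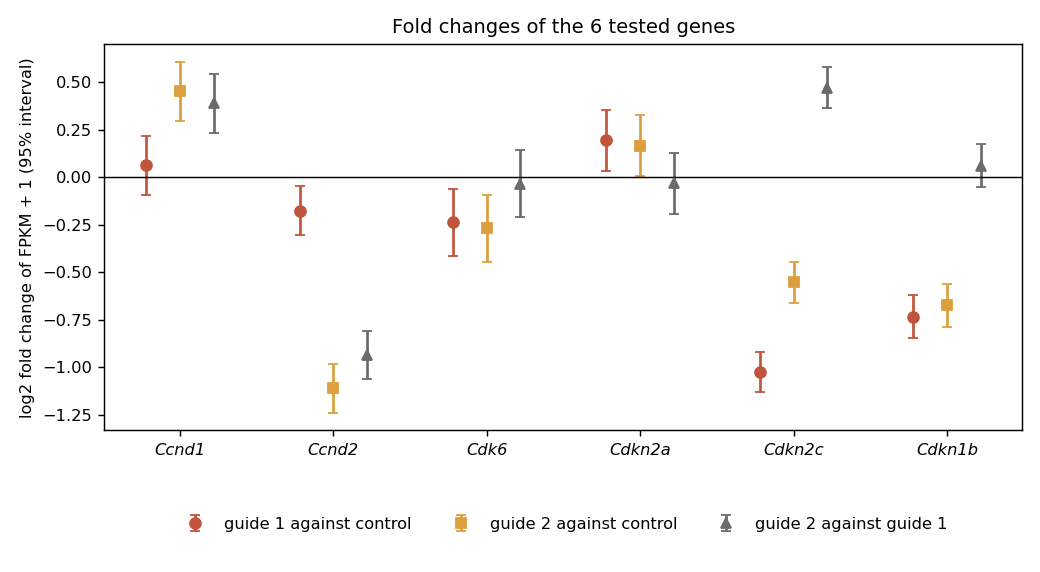
Log2 fold change of FPKM + 1 with its 95% interval for the 6 tested members, for guide 1 against control, guide 2 against control, and guide 2 against guide 1. Ccnd2 is lowest with guide 2 at -1.11 and Cdkn2c with guide 1 at -1.02, while the intervals of guide 2 against guide 1 include 0 for Cdk6, Cdkn2a and Cdkn1b.

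By mean FPKM the order with guide 1 was Ccnd1, Cdkn2a, Ccnd2, Cdkn2c, Cdkn1b, Cdk6 and Cdkn1a, and the control had the same order. With guide 2 Cdkn2c, at 37.8 ± 1.25 FPKM, stood before Ccnd2, at 29.9 ± 1.38 FPKM (SD, n = 3 each). Neighbours in the order did not overlap in any group except Ccnd1 and Cdkn2a with guide 1. The 4 inhibitors among the measured members summed to 147 ± 4.10 FPKM in guide 1 cells, 156 ± 10.9 FPKM in guide 2 cells and 176 ± 5.38 FPKM in control cells (SD, n = 3 each). Cdkn2d, with means of 26.1, 17.95 and 39.6 FPKM in the same order, and Cdkn1c are not members and are not in this sum. The Cdkn2a part also holds p19ARF transcript, which the row does not separate. Cdkn2a made up 65.2% to 67.1% of that sum with guide 1, 59.1% to 64.1% with guide 2 and 47.3% to 48.4% in the control. Cdkn1b and Cdkn2c together stood at 47.7 to 49.3 FPKM with guide 1, 58.8 to 61.8 FPKM with guide 2 and 88.1 to 95.7 FPKM in the control. Knockout libraries thus held less Cdkn1b and Cdkn2c transcript in sum and a larger share of Cdkn2a within these 4 inhibitors. These sums and shares were given no test of their own.

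For each tested member, the genes most like it were taken from 815 candidates whose mean was at least 5 FPKM and whose range was at least 1 log2 unit, by Pearson's r of log2(FPKM + 1) over the 9 libraries. These r values mostly follow the 3 group means and describe likeness only. Cdkn1b was most like Enc1 (r = 0.998), at 30.5 ± 1.34 FPKM in guide 1 cells, 33.7 ± 2.14 FPKM in guide 2 cells and 66.6 ± 4.64 FPKM in control cells (SD, n = 3 each), and like Mmp2 (r = 0.996). Cdkn2c was most like Nxn (r = 0.997) and Tspan6 (r = 0.996), with Nxn at 29.99 ± 0.415 FPKM in guide 1 cells, 48.9 ± 1.36 FPKM in guide 2 cells and 95.8 ± 8.05 FPKM in control cells. Ccnd2 was most like Pdha1 (r = 0.995), at 70.9 ± 3.41 FPKM in guide 1 cells, 40.4 ± 1.81 FPKM in guide 2 cells and 82.8 ± 2.85 FPKM in control cells, and like Id2 (r = 0.994). Ccnd1 was most like Pfas (r = 0.972) and Dusp7 (r = 0.961), with Dusp7 at 13.9 ± 1.62 FPKM in guide 1 cells, 25.0 ± 0.983 FPKM in guide 2 cells and 11.8 ± 1.32 FPKM in control cells. Likeness was lower for Cdk6, with Mlxip (r = 0.877) and Zyx (r = 0.864), and for Cdkn2a, with Mcts2 (r = 0.814) and S100a6 (r = 0.804).

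Other genes of the pathway were taken from 9 lists of 120 genes in all, of which 78 had a row and 73 were tested. Counts below are for the mean of both guides against control unless a guide is named, a comparison in which 81.1% of all tested genes passed, 37.8% higher and 43.3% lower. For genes lower with each guide, 37.9% of all tested genes were lower with guide 1 and 33.5% with guide 2. The share lower with both was not computed, and a shared direction is a property of the table. Of 3 genes listed as other CDK inhibitors 2 were tested, the INK4 gene Cdkn2d and the phosphatase gene Cdkn3, and both fell with each guide (median -0.77). Cdkn2d, which encodes the INK4 inhibitor p19INK4d, was present at 26.1 ± 3.23 FPKM in guide 1 cells, 17.95 ± 0.906 FPKM in guide 2 cells and 39.6 ± 0.131 FPKM in control cells (SD, n = 3 each), and it was lower with guide 2 than with guide 1 (log2 fold change -0.51, limma adjusted p = 0.000237), opposite in order to Cdkn2c. Cdkn3, a phosphatase of CDK2, fell by 0.93 with guide 1 and by 0.48 with guide 2 on the log2 scale. Cdkn1c, which encodes p57, was not tested and stood at 0.0863, 0 and 0.0872 FPKM with guide 1, 0.256, 0.211 and 0.0998 FPKM with guide 2, and 0.806, 0.593 and 0.291 FPKM in the control.

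The other cyclins and kinases of G1 and S phase had 5 tested genes, 1 higher and 1 lower, with a median of 0.07. Cdc25a, a phosphatase that activates CDK2, was higher by 0.31 with guide 1 and by 0.38 with guide 2. Ccne2, which encodes a cyclin E, fell by 0.48 with guide 1, and the guide 2 difference was -0.0022 (limma adjusted p = 0.976). It was 0.48 higher with guide 2 than with guide 1 (limma adjusted p = 5.51e-05). In the CDK-activating kinase list neither tested gene passed for both guides (limma adjusted p = 0.577 for Mnat1 and 0.0745 for Cdk20), though Cdk20 passed with guide 2 (0.0456). These 2 genes are named because they are the whole tested list.

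The list of RB family and MuvB complex genes had 2 of 4 tested genes lower and 0 higher (median -0.37), both also lower with each guide. Rb1, which encodes the retinoblastoma protein, was present at 2.77 ± 0.364 FPKM in guide 1 cells, 4.09 ± 0.593 FPKM in guide 2 cells and 6.10 ± 0.758 FPKM in control cells (SD, n = 3 each), with log2 fold changes of -0.91 and -0.48 (limma adjusted p = 3.23e-05 for guide 1 and 0.003 for guide 2). Lin54, a DNA-binding subunit of MuvB, fell by 0.78 with guide 1 and by 0.49 with guide 2. Of the E2F and DP factors 2 of 4 rose and 2 fell (median 0.02). E2f3, an activating E2F, was higher by 0.21 with guide 1 and by 0.58 with guide 2. E2f5, a repressive one, fell by 0.37 with guide 1 and stood at -0.08 with guide 2 (limma adjusted p = 0.283). Tfdp2, a dimer partner of E2F, stood at 0.18 with guide 1 (limma adjusted p = 0.056) and rose by 0.29 with guide 2.

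Genes for the turnover of cyclin D and of the inhibitors had 11 tested genes, 3 higher and 7 lower, with a median of -0.28. With guide 1, 4 were higher and 5 lower, against 30.2% and 37.9% of all tested genes. With guide 2, 3 were higher and 6 lower, against 31.9% and 33.5%. Cks1b, a cofactor of the ubiquitin ligase SCF-SKP2 that marks p27 for degradation, was present at 100.3 ± 4.07 FPKM in guide 1 cells, 125 ± 6.62 FPKM in guide 2 cells and 71.0 ± 2.38 FPKM in control cells (SD, n = 3 each), and rose by 0.49 with guide 1 and by 0.80 with guide 2 on the log2 scale. Skp1, a core subunit of SCF ligases, fell by 0.64 with guide 1 and by 0.80 with guide 2. Fbxw8, an F-box protein, fell by 0.79 with guide 1 and by 0.32 with guide 2. E2F target genes went both ways, with 9 of 17 tested genes higher and 7 lower (median 0.13). Orc1, of the origin recognition complex, rose by 0.68 with each guide, Mcm4, of the replicative helicase, by 0.55 with guide 1 and 0.69 with guide 2, and Tyms, thymidylate synthase, fell by 1.05 with guide 1 and by 0.20 with guide 2.

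p53 and its target genes had 16 tested genes, 11 higher and 5 lower where 37.8% and 43.3% of all tested genes were, with a median of 0.26. Of 25 listed genes 17 had a row, and the targets Mdm2, Bax, Gadd45a, Zmat3 and Sesn1 were among those without one. The 5 lower genes were Mdm4, Ccng1, Btg2, Ei24 and Fas. Ccng1 fell by 0.73 with guide 1 and by 0.45 with guide 2, and Fas fell by 0.54 and 0.66. With guide 1, 10 were higher and 4 lower, against 30.2% and 37.9% of all tested genes. With guide 2, 8 were higher and 4 lower, against 31.9% and 33.5%. Trp53 itself was present at 65.9 ± 2.57 FPKM in guide 1 cells, 94.9 ± 2.65 FPKM in guide 2 cells and 40.3 ± 2.87 FPKM in control cells (SD, n = 3 each), with log2 fold changes of 0.70 for guide 1 (limma adjusted p = 1.5e-06) and 1.22 for guide 2 (limma adjusted p = 3.06e-08). Pmaip1, which encodes the pro-apoptotic protein NOXA, rose by 2.80 with guide 1 and by 0.65 with guide 2. Plk2, a polo-like kinase, rose by 0.98 with guide 1 and by 1.42 with guide 2. Trp53 was thus higher with guide 2 than with guide 1 (log2 fold change 0.52, limma adjusted p = 2.47e-05), and so was Plk2 (log2 fold change 0.45, limma adjusted p = 0.000114). Pmaip1 was lower with guide 2 (log2 fold change -2.16, limma adjusted p = 8.26e-09), the order that Cdkn1a also had. The list as a whole had no single order between the guides. Of its 16 tested genes, 4 were higher and 6 lower with guide 2 than with guide 1, against 31.2% and 23.3% of all tested genes.

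Regulators of the INK4 locus and of cyclin transcription had 12 tested genes, 5 higher and 6 lower, with a median of -0.13. Id2, an inhibitor of basic helix-loop-helix factors, was present at 18.03 ± 1.79 FPKM in guide 1 cells, 3.80 ± 0.343 FPKM in guide 2 cells and 19.9 ± 1.14 FPKM in control cells (SD, n = 3 each), which is a log2 fold change of -2.13 with guide 2 (limma adjusted p = 7.88e-09) and of -0.14 with guide 1 (limma adjusted p = 0.147). Ets1, a transcription factor that in human cells can activate CDKN2A, was higher by 1.39 with guide 1 and by 0.46 with guide 2. Ets2, a related factor, fell by 0.51 with guide 1 and by 0.46 with guide 2. Medians of all lists stand beside -0.08 over all tested genes.

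**Figure D4:**
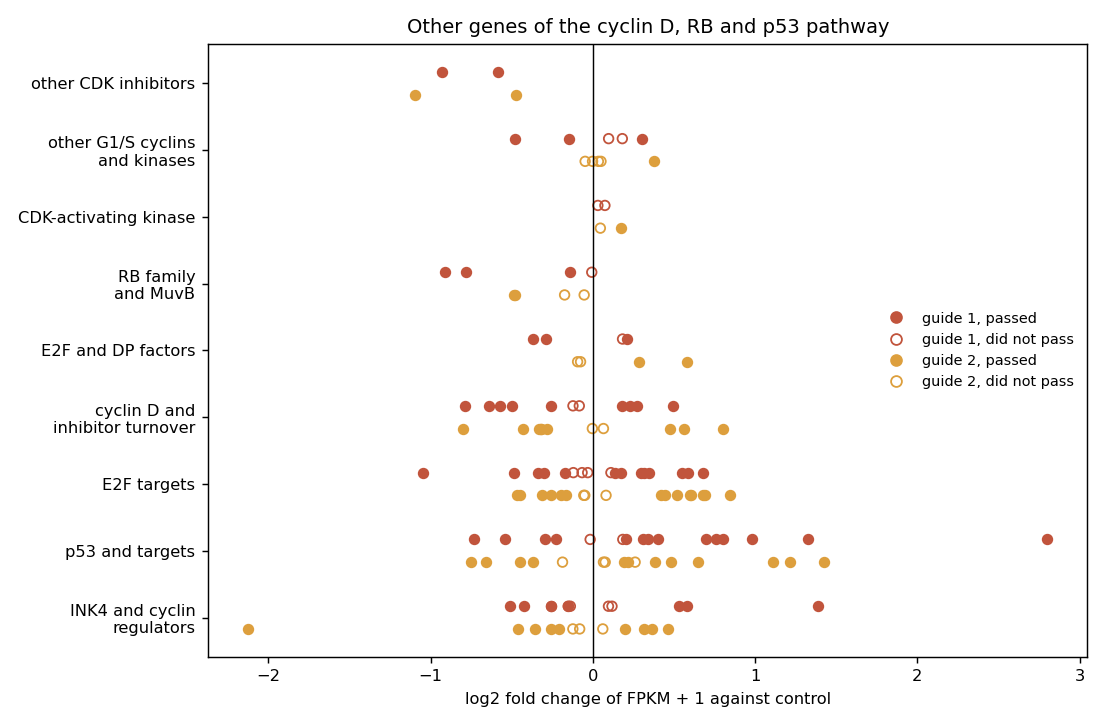
Log2 fold change of FPKM + 1 against control for each tested gene of 9 pathway lists, with guide 1 above guide 2 in each list and filled points for genes that passed the test. In the list of other CDK inhibitors, Cdkn2d and the phosphatase gene Cdkn3 lie left of 0 with each guide. The E2F targets lie on both sides, and the points farthest out are Pmaip1 at 2.80 with guide 1 and Id2 at -2.13 with guide 2.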

How the data were processed

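Poly(A) RNA from 9 libraries was sequenced as stranded paired-end reads, per the labels' protocols. The deposited values are FPKM per gene and library, per the file headers; cutadapt, FastQC, HISAT2 and StringTie are named in the submitters' processing notes, while their versions and the annotation used are not recorded in the labels or file headers. Groups and replicate numbers came from the sample titles, and no library held values identical to another. The table held 15620 rows, of which 174 rows that share 62 symbols were left out. Values were analysed as log2(FPKM + 1), which understates the change of low genes, for the 6965 genes whose mean reached 1 FPKM. limma 3.58.1 in R 4.3.3 was fitted to the 3 groups together, its prior variance following the mean level, with Benjamini-Hochberg adjustment over all tested genes. The fit was also run on simulated data, in which far fewer genes changed than here and both guides had the same effect. No support for the calls is drawn from that run. Errors of levels are SDs, and SE refers to the model. Per-sample columns outside the 9 libraries numbered 0. Depth is unknown, so no interval for counting error is given.

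The members and lists were chosen with earlier results of these data known. Named are all members, the 3 called genes of each pathway list with the largest change for the mean of both guides, and the 2 genes most like each member. The lower genes of the p53 list are named as well. Likeness left out genes whose names mark them as predicted or as pseudogenes. The fits were repeated with a smaller pseudocount (0.1), without the filter on low values, with that filter at 5 FPKM, after quantile normalization, and after rescaling to trimmed means (30% off each end). They were also repeated with replicate number as a block, with 1 prior variance for all genes, with only the libraries compared, with p-values multiplied by 1.5, and leaving out each library. The factor of 1.5 was used because 15441 of the 15446 rows have both knockout means on 1 side of the control. It was not derived from the data and is not known to correct for how the rows were selected. Promoters came from RefSeq, and exon overlaps from GENCODE M21, both on GRCm38.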

Additional observations from a re-analysis of the deposited data

Results flagged for a closer look

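For 3 of 6 tested members the effect of guide 2 differed from that of guide 1 in the test of the difference itself, in which the control cancels. Of all tested genes 54.5% passed this test, and for 61.5% the 2 guide groups did not overlap. The count therefore does not set the members apart from other genes. Cdkn2c was higher with guide 2 than with guide 1 (log2 fold change 0.47, limma adjusted p = 1.67e-05), with all 3 guide 2 libraries above all 3 guide 1 libraries. Ccnd1 was higher with guide 2 (log2 fold change 0.39, limma adjusted p = 0.000871), again in 3 of 3 libraries. Ccnd2 was lower with guide 2 (log2 fold change -0.93, limma adjusted p = 4.82e-07) in 3 of 3 libraries. Whether these differences belong to the guides or to single clones was not tested.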

How the results depend on the processing

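Of 422 recomputed fold changes of the 6 tested members, 397 kept their direction and side of the threshold, 18 lost the call, 4 gained it and 3 changed sign. The sign changes concern differences between guide 2 and guide 1 that did not pass in any fit: Cdkn2a ranged from -0.121 to 0.0345 when 1 library was left out (0.000663 without guide 1 replicate 2), and Cdk6 from -0.0915 to 0.0112. The lost and gained calls all concern Cdkn2a, Ccnd1, Ccnd2 and Cdk6 against control, and the 8 comparisons of Cdkn1b and Cdkn2c kept call and direction in every alternative run. Leaving out 1 library, the members called numbered 3 to 5 with guide 1 (3 without guide 1 replicate 2 and without guide 1 replicate 3), 5 to 6 with guide 2, 6 to 7 for both guides and 3 to 4 between guides, where Cdkn1a passes the filter in some fits. All tested genes called numbered 4429 to 4807, 4209 to 4502, 5183 to 5615 and 3365 to 3890 in the same order, and the pathway genes called for both guides 59 to 64. Correlations of deviations of same-numbered libraries lay between -0.107 and 0.245, the highest between guide 1 and guide 2 in replicates 1 (0.245) and 3 (0.210). Differently numbered libraries were not compared, so these values cannot decide whether replicate numbers pair the libraries. With the replicate block 4764 genes were called for guide 1, 4559 for guide 2, 5651 for both guides and 3784 between the guides, the guide 2 difference of Cdkn2a passed (0.17, limma adjusted p = 0.0469), and no other call of a member changed. The filter of 5 FPKM leaves out Cdk6, and using only the libraries compared gives no separate value for both guides. Scalings moved the median of all genes by less than 0.1 log2 units. Depth is unknown, so the counting error of low members such as Cdkn1a cannot be given. The cause of the lost calls was not tested.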
